A study of Homo sapiens with 16 samples.

Results

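The 47 genes described here encode the proteins that license replication origins, fire them and carry the replication fork. They were chosen by symbol, by their known roles and with earlier results of these data known. The Ensembl identifiers that GENCODE 29 pairs with those symbols located them in the table. All 47 were among the 28951 genes listed, and all 47 passed the filter on low values that left 23968 genes for testing. The samples were 4 human non-small cell lung cancer lines grown in culture. The series design calls 2 of the lines, H460 and H1703, responsive and the other 2, HCC827 and H441, non-responsive. Each was treated for 48 hours, starting 1 day after plating, with vehicle (DMSO) or with 5 µM MYCi975 and 25 µM TMP195 given together, called the combination below. MYCi975 is a small molecule inhibitor of MYC, a transcription factor, and TMP195 is an inhibitor of class IIa histone deacetylases. Each of the 8 groups of line and treatment had 2 libraries, so 16 libraries were compared. The labels are silent on whether both libraries of a group were separate cultures, so p-values measure only the spread between libraries. A line class here is 2 lines, and what differs between the classes covers these 4 lines alone. The single agents were not analysed here, so the effect of either compound by itself cannot be told apart from that of the pair.

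In G1 phase the origin recognition complex, made of ORC1 to ORC6, binds DNA and, with CDC6 and CDT1, loads the MCM2-7 ring as an inactive double helicase, a step called licensing. Geminin, encoded by GMNN, binds CDT1 and blocks new loading once S phase has begun. The CDC7-DBF4 kinase then helps CDC45 and the GINS complex join the ring into the active CMG helicase, behind which polymerase alpha-primase, the PCNA clamp and its RFC loader, polymerases delta and epsilon, and the joining enzymes FEN1 and LIG1 copy the strands. Most of these genes are known targets of the E2F transcription factors and are transcribed mainly in cycling cells. In bulk RNA, a smaller share of cycling cells and less RNA of these genes per cell cannot be told apart.

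The promoters of 41 of the 47 genes matched an entry of the RefSeq promoter table (GRCh38.p14), which runs from 250 bases before to 50 bases after the annotated start. MCM4, MCM5, GINS4, RPA2, RPA3 and POLD3 had no entry. The windows were searched on both strands for 4 E2F-type words, TTTCCCGC, TTTGGCGC, TTTCGCGC and TTCCCGCC. The first and the last can overlap each other, as can the second and the third on opposite strands. At least 1 of them occurred in 22 of 41 member promoters (53.7%) and in 1385 of all 27305 promoters of that length (5.07%). Both extremes of the promoters are shown, with E2F-type matches in capitals, 5′ to 3′ along the gene's strand, from 250 bases before the start to its first 30 bases. GINS2, MCM10 and ORC1 are shown because they had the most negative mean change over the 4 lines, and ORC5, ORC2 and ORC4 because they had the least negative. MCM3 and MCM6 were added after the matches were seen, because they held 4 each, with overlapping matches counted separately. The windows lay at chr16:85688925-85689204 on the minus strand (GINS2), chr10:13161308-13161587 on the plus strand (MCM10), chr1:52404394-52404673 on the minus strand (ORC1), chr7:104207984-104208263 on the minus strand (ORC5), chr2:200963631-200963910 on the minus strand (ORC2), chr2:148021522-148021801 on the minus strand (ORC4), chr6:52284713-52284992 on the minus strand (MCM3) and chr2:135876414-135876693 on the minus strand (MCM6).
GINS2: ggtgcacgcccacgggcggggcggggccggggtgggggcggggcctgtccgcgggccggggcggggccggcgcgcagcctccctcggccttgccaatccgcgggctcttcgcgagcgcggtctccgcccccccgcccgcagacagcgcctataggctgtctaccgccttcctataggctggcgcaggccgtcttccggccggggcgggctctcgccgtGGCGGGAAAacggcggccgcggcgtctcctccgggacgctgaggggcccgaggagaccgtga
MCM10: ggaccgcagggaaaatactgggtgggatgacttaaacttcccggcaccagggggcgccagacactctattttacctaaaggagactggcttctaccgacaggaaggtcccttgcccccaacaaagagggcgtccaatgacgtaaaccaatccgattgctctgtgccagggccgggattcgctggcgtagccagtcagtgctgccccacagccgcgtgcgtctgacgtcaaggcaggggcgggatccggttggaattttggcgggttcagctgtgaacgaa
ORC1: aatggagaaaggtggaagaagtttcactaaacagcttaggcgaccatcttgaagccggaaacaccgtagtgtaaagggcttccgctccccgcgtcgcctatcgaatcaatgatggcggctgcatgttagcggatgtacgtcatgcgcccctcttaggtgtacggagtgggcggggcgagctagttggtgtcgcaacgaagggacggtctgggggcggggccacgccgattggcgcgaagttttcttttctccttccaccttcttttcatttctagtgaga
ORC5: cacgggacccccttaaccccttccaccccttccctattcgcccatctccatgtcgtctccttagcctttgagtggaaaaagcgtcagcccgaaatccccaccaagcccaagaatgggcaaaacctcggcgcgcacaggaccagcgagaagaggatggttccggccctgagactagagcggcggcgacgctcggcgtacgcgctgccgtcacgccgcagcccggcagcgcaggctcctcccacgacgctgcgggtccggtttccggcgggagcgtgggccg
ORC2: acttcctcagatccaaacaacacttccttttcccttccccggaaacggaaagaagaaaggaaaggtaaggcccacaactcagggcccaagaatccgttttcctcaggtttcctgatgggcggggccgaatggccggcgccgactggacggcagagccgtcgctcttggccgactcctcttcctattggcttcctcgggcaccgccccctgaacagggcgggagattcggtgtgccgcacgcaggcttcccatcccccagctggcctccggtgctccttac
ORC4: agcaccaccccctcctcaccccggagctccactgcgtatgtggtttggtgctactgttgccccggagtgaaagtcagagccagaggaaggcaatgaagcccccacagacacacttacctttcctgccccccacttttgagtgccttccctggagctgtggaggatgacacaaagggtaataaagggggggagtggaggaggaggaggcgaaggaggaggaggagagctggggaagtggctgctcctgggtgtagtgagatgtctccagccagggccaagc
MCM3: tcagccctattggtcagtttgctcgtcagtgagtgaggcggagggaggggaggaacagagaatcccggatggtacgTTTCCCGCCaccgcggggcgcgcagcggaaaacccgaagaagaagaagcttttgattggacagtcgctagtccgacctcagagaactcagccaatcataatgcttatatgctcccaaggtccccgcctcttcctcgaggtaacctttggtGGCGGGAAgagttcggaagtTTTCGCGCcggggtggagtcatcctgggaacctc
MCM6: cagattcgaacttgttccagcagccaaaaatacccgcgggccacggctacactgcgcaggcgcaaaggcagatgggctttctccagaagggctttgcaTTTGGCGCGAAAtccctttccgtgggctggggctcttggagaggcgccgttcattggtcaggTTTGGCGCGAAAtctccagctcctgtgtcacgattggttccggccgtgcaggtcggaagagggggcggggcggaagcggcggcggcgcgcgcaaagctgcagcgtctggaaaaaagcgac
The GINS2 window held 2 overlapping matches, whose first bases lay -32 and -31 from the start. The MCM3 matches began at -174, -173, -24 and -4, and those of MCM6 at -152, -148, -90 and -86. Overlapping pairs were those at -174 and -173 in MCM3, and at -152 and -148 and at -90 and -86 in MCM6. The other 5 windows printed held none of these words, those of ORC1 and MCM10 included. Only exact words were searched, so a window without a match can still hold a close variant. Across the 41 genes, the median mean change was -0.91 with a match and -0.73 without, with overlapping ranges of -1.71 to -0.15 and -1.60 to -0.04. The MYC-type E-box CACGTG occurred in 7 of 41 member promoters (17.1%, against 7.43% of all promoters), and the CCAAT box in 23 (56.1%, against 35.7%). The CHR word TTTGAA, linked to genes expressed late in the cell cycle, occurred in 1, that of DBF4 (2.44%, against 15.4%). A match is a description of letters in the window and not a measured binding site.

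The libraries held 8493271 to 13604150 reads over the listed genes, and the libraries of a group correlated at 0.976 to 0.985 across genes. The 47 genes had 12 to 5677 recovered reads in a library. Levels are given as normalised reads, which are recovered reads divided by the library's size factor, and changes as log2 differences of the deposited values, treated minus vehicle, ± the limma fit's standard error (2 libraries a group). EPCAM and CDH1, markers of epithelial cells, averaged 2356 to 8916 normalised reads in HCC827 and H441 but 0.197 to 5.48 in H460 and H1703. The epithelial gene ELF3 averaged 555 in HCC827 and 1653 in H441, against 2.44 in H460 and 0.243 in H1703. In the same order, the alveolar or club cell genes listed were NKX2-1 (714 and 1423 against 0.57 and 2.01), NAPSA (46.8 and 737 against 1.1 and 6.93) and SFTPB (16.4 and 45.9 against 3.24 and 3.9). The other markers did not all divide the lines this way. The epithelial keratin genes KRT8, KRT18 and KRT19 averaged 18011, 4389 and 8683 in H460, against 17510, 4670 and 5889 in HCC827 and 66.6, 168 and 0.516 in H1703. The mesenchymal gene VIM averaged 11650 in H460, 12099 in H1703, 3624 for HCC827 and 2.75 for H441, ZEB1 averaged 1177, 1950, 1034 and 138, and FN1 averaged 33297, 98.4, 3357 and 1196. Of other cell types, PTPRC, CD3E and HBB (blood), COL1A2 and DCN (fibroblasts) and CDH5 (endothelium) were not among the listed genes, and the endothelial genes that were listed summed to 0 to 11.1 normalised reads a library (in H1703, 0 in both vehicle libraries and 4.36 and 4.73 under the combination). The summed level of the 3 fibroblast genes listed was 132 to 157 under vehicle and 69.3 to 86.7 under the combination in H460, 64.2 to 70.9 against 18.8 to 29.5 in HCC827, 189 to 238 against 151 to 153 in H441, and 0.788 to 7.79 in all H1703 libraries. CD68, the blood marker listed, had 1.95 and 0.701 normalised reads under vehicle and 22.9 and 15.8 under the combination in H1703, and 6.06 and 6.08 against 24.7 and 22.1 in HCC827, while the treatments overlapped in H460 (at most 7.08) and H441 (at most 18.1). The part of these markers in the changes below was not tested.

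As a group, the replication genes took less of the RNA under the combination, and far less in the responsive lines. Their summed share of reads was 0.407 and 0.409% in H460 vehicle libraries and 0.136 and 0.134% under the combination. In H1703 it was 0.415 and 0.425% against 0.168 and 0.17%. The share was 0.343 and 0.335% against 0.277 and 0.257% in HCC827, and 0.426 and 0.402% against 0.363 and 0.353% in H441. Treated libraries lay below vehicle libraries in every line with no overlap, but those of HCC827 and H441 stayed above those of H460 and H1703.

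In H460, 44 of the 47 genes fell and none rose (limma, adjusted p under 0.05), where 12.6% of all genes tested fell and 14.1% rose. In H1703, 43 fell and none rose, against 17.6 and 17.9% of all genes. In HCC827, 26 fell and none rose, against 5.5 and 4.42%. In H441, 2 fell and none rose, against 1.86 and 2.77%, a share of the members, 4.26%, that rests on MCM4 and ORC4. No member rose at an unadjusted p under 0.05 in any of the 4 lines, and limma voom on the recovered reads also called none higher. The numbers that were lower at an unadjusted p under 0.05 were 45, 43, 33 and 9 of 47, in the order H460, H1703, HCC827 and H441. The share of all genes at that unadjusted threshold was not counted, here or below. The percentages above are for adjusted p and are no background for these numbers. The median change of the members was -1.61 for H460, -1.30 for H1703, -0.42 for HCC827 and -0.12 for H441, and that of all genes tested was 0.05, 0.08, 0.00 and 0.00. Averaged over the 4 lines, 44 members fell and none rose, against 16.7 and 18.4% of all genes. Centring each library on its median moved the all-gene median to -0.15 in H460 and -0.16 in H1703, and the share of all called genes that were higher from 52.7 to 32.6% and from 50.4 to 31.1% (52.4 to 34.6% over the 4 lines). The members' medians were then -1.81 and -1.54.

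Falls of at least 1 on the log2 scale separated the lines further. They numbered 39 members in H460, where 3.95% of all genes fell so far, and 30 in H1703 (6.68%). GINS2 alone did so in HCC827 (0.935%) and no member in H441 (0.559%). Among the 239 genes that form the lowest 1% of changes in a line stood 13 members in H460, 11 in H1703 and none in HCC827 or H441. Of the single calls, 25 members fell in H460, H1703 and HCC827 but not past the threshold in H441, and 17 fell in H460 and H1703 alone. The share of all genes with either pattern was not counted. MCM4 fell in all 4 lines, ORC3 passed only in H460 and ORC4 only in H441, and ORC2 and ORC5 passed in none. Whether 1 line's threshold was passed and another's was not is no test of a difference, which is given per gene below.

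**Figure D1:**
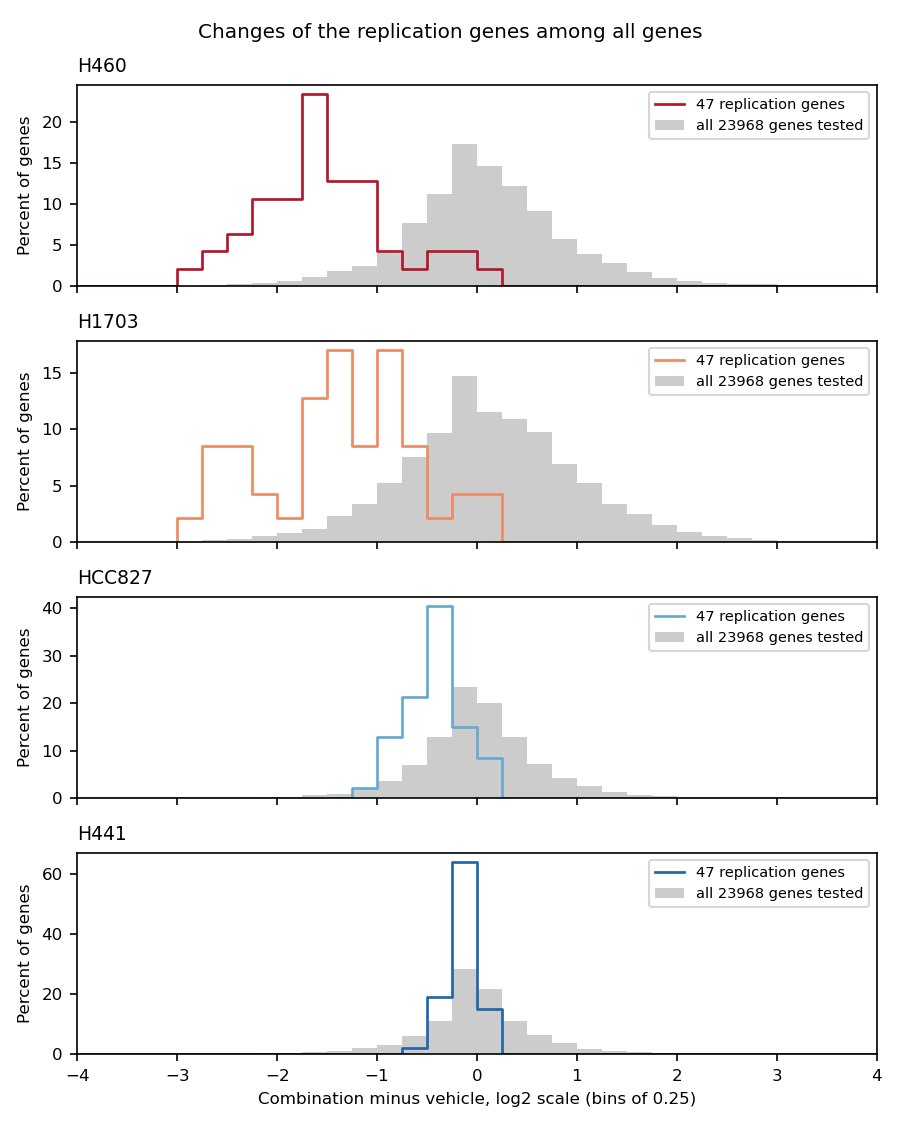
Share of genes (percent, y axis) per bin of log2 change, combination minus vehicle (x axis), in each of the 4 lines, for the 47 replication genes and for all 23968 genes tested. The members' median is -1.61 for H460, -1.30 for H1703, -0.42 for HCC827 and -0.12 for H441, while that of all genes is 0.05, 0.08, 0.00 and 0.00.

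The plot of change distributions shows the members as a group shifted to the left of all genes in H460 and H1703, less so in HCC827, and mostly inside the central peak in H441. Left out of the HCC827 fit in turn, vehicle library 1, vehicle library 2 and combination library 2 brought the 26 calls to 16, 17 and 14. Of these 26 genes, 13 were called in every fit that left out 1 library (ORC1, CDT1, MCM4, MCM5, MCM6, MCM7, MCM10, GINS2, GINS4, PCNA, POLA1, FEN1 and WDHD1), and the HCC827 calls of the other 13 were lost without 1 or more of the HCC827 libraries. The 2 calls in H441 became none without H441 vehicle 1 or combination 2, 1 without H441 vehicle 2 or any vehicle library of the other lines, and 5 without H460 combination 1 or combination 2.

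**Figure D2:**
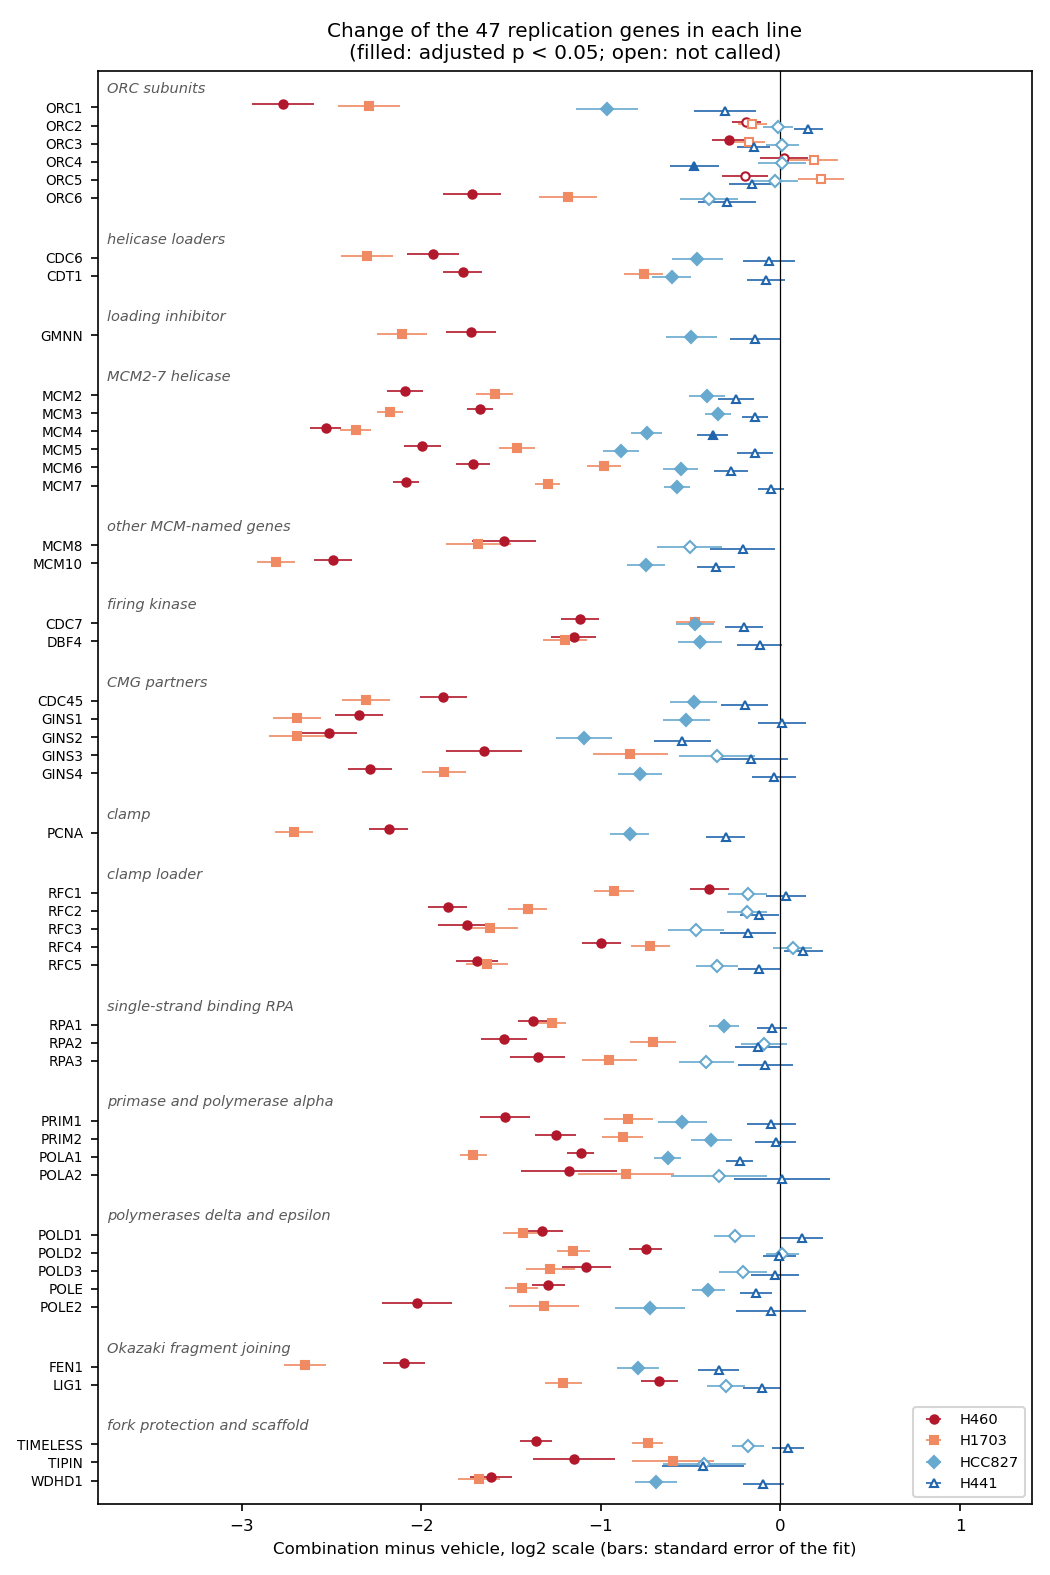
Log2 change, combination minus vehicle (x axis), of each of the 47 genes grouped by role (y axis) in H460 (circles), H1703 (squares), HCC827 (diamonds) and H441 (triangles), with bars for the standard error of the fit. Filled symbols passed an adjusted p of 0.05, and 44, 43, 26 and 2 genes did so as lower, with none higher.

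The plot of changes by role is read here from origin binding to fragment joining. The origin recognition complex divided sharply, since ORC1 and ORC6 fell in the responsive lines while most values of the other 4 subunits lay near 0. ORC1 (ENSG00000085840.13, chr1:52372829-52404459, minus strand), the subunit whose level is known to be tied to the cell cycle, fell the most of the 47 in H460. ORC1 had 571 and 533 normalised reads under vehicle and 73.4 and 84.4 under the combination in H460, and 248 and 244 against 52.3 and 44.1 in H1703. ORC1 levels were 539 and 452 against 316 and 200.1 in HCC827 and 271 and 270.2 against 236 and 202 in H441, vehicle first. The treated libraries lay below the vehicle libraries in all 4 lines. The change was -2.77 ± 0.17 in H460 (6.81-fold lower, limma adjusted p = 2.5e-10), -2.29 ± 0.17 in H1703 and -0.96 ± 0.17 in HCC827. In H441 it was -0.31 ± 0.17, which did not pass (adjusted p = 0.392). ORC6, a subunit that binds the rest of the complex loosely, fell by 1.72 in H460 and by 1.18 in H1703, and its values in HCC827 and H441 were -0.40 and -0.30.

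ORC2 and ORC5, core subunits of the complex, passed the threshold in no line with all libraries and the deposited scaling. Libraries of H460 held 326 and 300.5 normalised reads under vehicle and 269 and 276 under the combination for ORC5, and those of H1703 held 263 and 274 against 349.6 and 282. The ORC5 pairs were 217 and 259 against 227 and 237 in HCC827 and 371 and 364 against 352 and 307 in H441. The HCC827 libraries of the 2 treatments overlapped, and in H1703 both treated libraries were above both vehicle libraries. The ORC5 change was -0.20 ± 0.13, 0.22 ± 0.13, -0.03 ± 0.13 and -0.16 ± 0.13 in H460, H1703, HCC827 and H441. The level of ORC2 was 1612 and 1830 normalised reads under vehicle and 1404 and 1614 under the combination in H460, and 1024 and 1055 against 943 and 920.4 in H1703. HCC827 had ORC2 at 1219 and 1188 against 1188 and 1195, and H441 at 1221 and 1210 against 1359 and 1349. ORC2 changes were between -0.19 and 0.16. ORC2 passed as lower in H460 without vehicle 1 (-0.28, adjusted p = 0.0465 by limma) or combination 2 (-0.29, 0.0224). With median centring it passed in H460 (-0.38, 0.00264) and H1703 (-0.40, 0.0014) and ORC5 in H460 (-0.39, 0.0291), and the uncalled positive changes of ORC4 in H460 and of ORC4 and ORC5 in H1703 became -0.17, -0.06 and -0.02. ORC3 fell by 0.29 in H460 (adjusted p = 0.0246 by limma), a call lost without any 1 of the 4 H460 libraries. ORC4 fell by 0.48 in H441 (adjusted p = 0.0469), where libraries had 306 and 283 under vehicle and 249.8 and 177 under the combination, and this call was lost in 17 of 25 alternatives (adjusted p up to 0.464). Among them were the fits without H441 vehicle 1, vehicle 2 or combination 2, either H460 vehicle library, or any H1703 or HCC827 library.

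**Figure D3:**
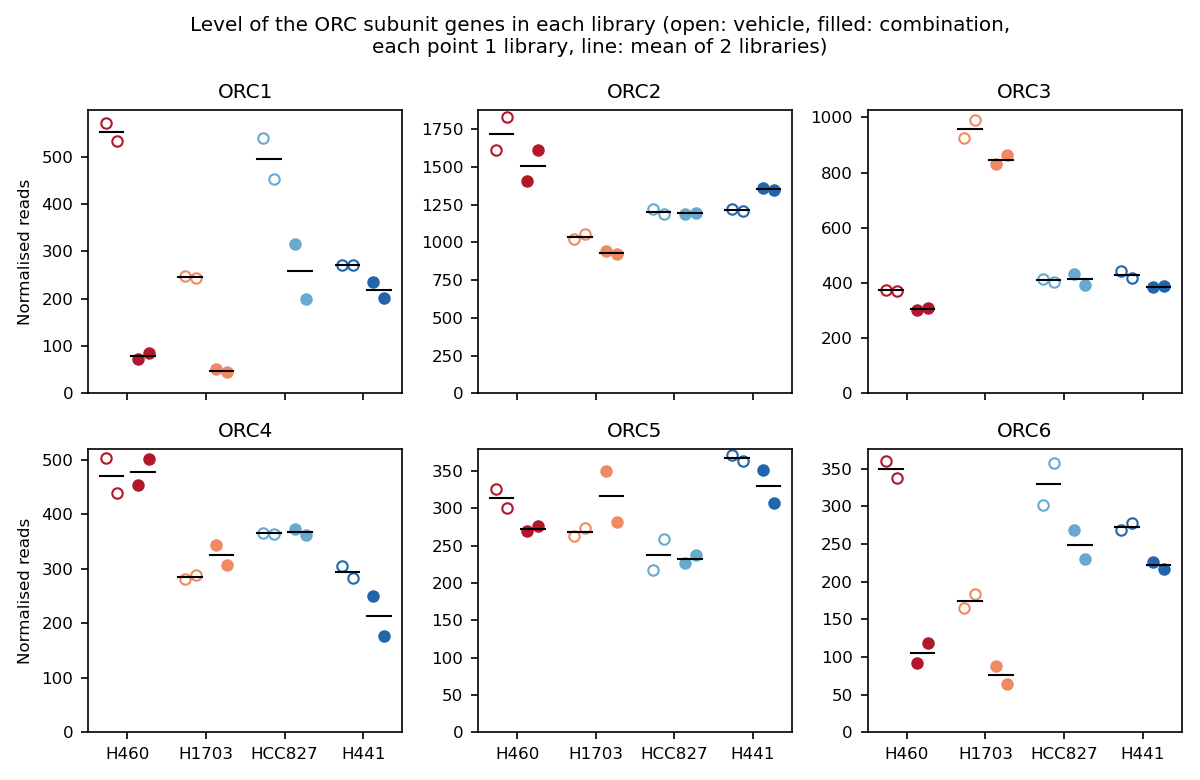
Normalised reads (y axis) of the 6 ORC genes in each of the 16 libraries, by line (x axis), with open points for vehicle, filled points for the combination and a line for the mean of 2 libraries. ORC1 goes from 571 and 533 to 73.4 and 84.4 in H460, while ORC2 stays between 920 and 1830 in all libraries.

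The plot of ORC levels shows the contrast within the complex by library. Per kilobase of exons, ORC2 had the highest level of the 6 in vehicle H460 (294.9 normalised reads per kb) and ORC4 the lowest (52.8). Under the combination ORC1 moved from the second place of the 6 to the fifth in H460, and from the third to the last in H1703 (15.3 normalised reads per kb against 229.5 for ORC3). These orders are descriptions with no test. They depend on the length used, the union of all annotated exons, which is 8915 bases for ORC4 and 3724 for ORC5. Undivided, ORC4 had a mean of 470.9 normalised reads in vehicle H460, above ORC5 with 313.1.

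The 2 helicase loaders fell in the responsive lines and in HCC827. CDC6 is the ATPase that joins ORC to recruit the ring. H460 libraries had 1331 and 1126 normalised reads under vehicle and 390.5 and 259 under the combination of CDC6, and H1703 libraries had 1388 and 1553 against 267 and 328. With CDC6, HCC827 gave 1202 and 1128 against 876 and 813 and H441 gave 1626 and 1395 against 1446 and 1437 normalised reads. The treated libraries lay below vehicle in H460, H1703 and HCC827, and in H441 they overlapped. CDC6 changed by -1.94 ± 0.14 in H460 and -2.30 ± 0.14 in H1703 (limma adjusted p = 3.14e-09 and 1.85e-10). Its HCC827 value of -0.46 ± 0.14 passed narrowly (adjusted p = 0.047) and was lost in 15 of 25 alternatives (adjusted p up to 0.256). Among them were the fits without any HCC827 or H441 library or a vehicle library of H460 or H1703.

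CDT1, the loader that geminin binds, did not fall equally in the responsive lines. For CDT1, H460 gave 413 and 378 normalised reads under vehicle and 115 and 113 under the combination, and H1703 gave 343 and 314 against 202 and 184. Vehicle against treated CDT1 was 532 and 472 against 336 and 320 in HCC827 and 514 and 526 against 494 and 489 in H441. The treated libraries were lower in each line without overlap, though by a small margin in H441. The change was -1.77 ± 0.11 in H460, -0.76 ± 0.11 in H1703, -0.61 ± 0.11 for HCC827 and -0.08 ± 0.11 for H441. GMNN, which encodes geminin, fell alongside the loaders that it opposes. In H460, GMNN had 823 and 858 normalised reads under vehicle and 275 and 232 under the combination, and in H1703 it had 1006 and 1024 against 231 and 236. For GMNN the vehicle and treated libraries held 604 and 492 against 450.5 and 330.2 in HCC827 and 1130 and 954 against 1037 and 855 in H441. GMNN changed by -1.72 ± 0.14 in H460, -2.11 ± 0.14 in H1703 and -0.50 ± 0.14 in HCC827, where the call was lost without HCC827 vehicle 1 or combination 2. In H441 its libraries overlapped and the change was -0.14 ± 0.14.

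All 6 genes of the MCM2-7 ring fell in H460, H1703 and HCC827, and 1 of 6 in H441. Their changes spanned -2.53 to -1.67 in H460 and -2.37 to -0.98 in H1703, and -0.89 to -0.35 in HCC827. MCM4 fell the most of them over the 4 lines and was the only member called in each. MCM4 had 3692 and 3522 normalised reads under vehicle and 630.1 and 612 under the combination in H460, and 2397 and 2437 against 433 and 503 in H1703. MCM4 levels were 2706 and 2668 against 1739 and 1479 in HCC827 and 6269 and 5655 against 4730 and 4445 in H441, vehicle first. Treated libraries were below vehicle libraries in every line. The change was -2.53 ± 0.09 in H460 (5.78-fold lower), -2.37 ± 0.09 in H1703 (5.15-fold), -0.74 ± 0.09 for HCC827 and -0.38 ± 0.09 for H441 (limma adjusted p = 0.0139). The H441 call was lost without vehicle library 1 (adjusted p = 0.181) and without combination library 2 (0.138).

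MCM6 fell the least of the ring genes over the 4 lines. Libraries of H460 held 1662 and 1600 normalised reads under vehicle and 448 and 548 under the combination for MCM6, and those of H1703 held 864 and 971 against 449 and 476. The MCM6 pairs were 853 and 920.5 against 606 and 598 in HCC827 and 1451 and 1456 against 1185 and 1215 in H441. The groups did not overlap in any line, and the changes were -1.71 ± 0.10, -0.98 ± 0.10, -0.56 ± 0.10 and -0.28 ± 0.10 in H460, H1703, HCC827 and H441. MCM5 fell most among the ring genes in HCC827. The level of MCM5 was 800.2 and 849 normalised reads under vehicle and 219 and 192 under the combination in H460, and 1215 and 1291 against 478 and 426 in H1703. HCC827 had MCM5 at 823 and 783 against 467 and 400.2, and H441 at 1621 and 1430 against 1389 and 1370. Its HCC827 change of -0.89 ± 0.10 stood between that of H1703, -1.47 ± 0.10, and that of H441, -0.14 ± 0.10.

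**Figure D4:**
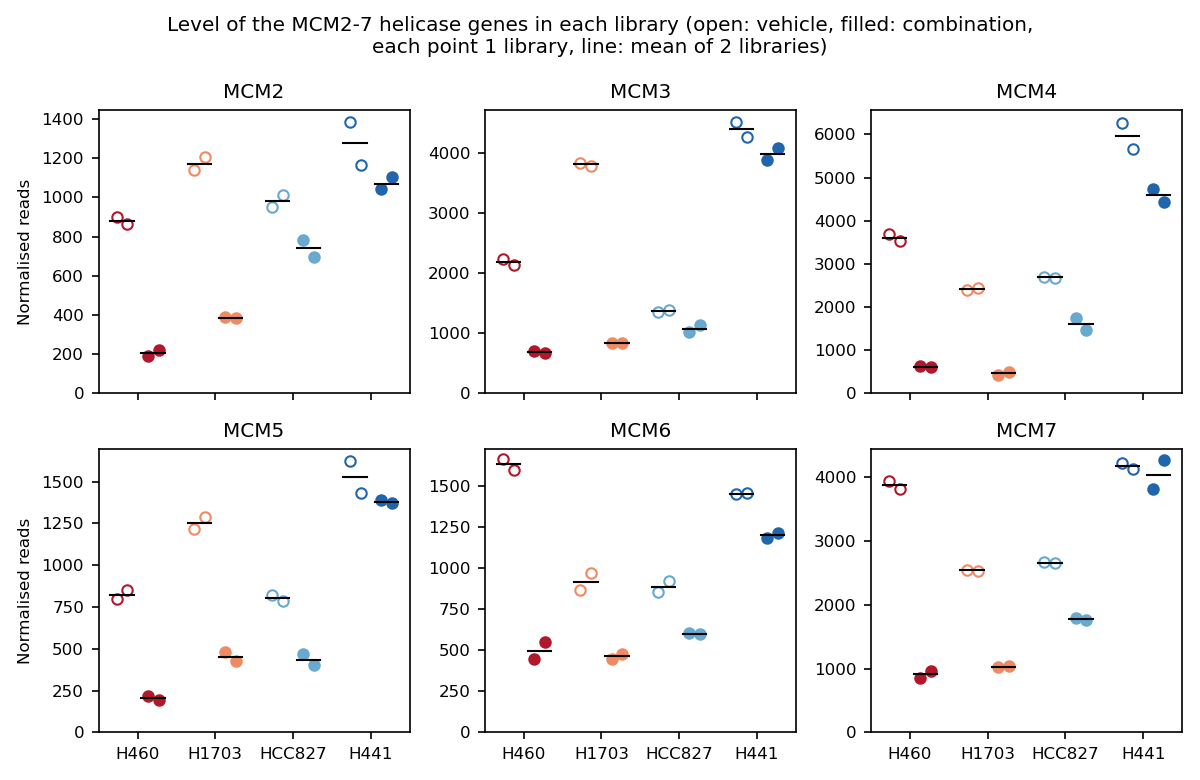
Normalised reads (y axis) of MCM2 to MCM7 in each of the 16 libraries, by line (x axis), with open points for vehicle, filled points for the combination and a line for the mean of 2 libraries. MCM4 goes from 3692 and 3522 to 630 and 612 in H460, and from 6269 and 5655 to 4730 and 4445 in H441.

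The plot of ring gene levels shows subunits that differ widely in level and were lower in the treated libraries of H460 and H1703. Per kilobase of exons, MCM7 was the highest of the 6 in vehicle H460 at 883 normalised reads per kb and MCM5 the lowest at 112.4, a ratio of 7.86. By this measure MCM7 or MCM3 stood first and MCM5 last in each of the 8 groups. MCM4 dropped by it from the third place to the fourth in H460 and to the fifth in H1703 under the combination. The length is the union of all annotated exons, 7338 bases for MCM5 against 3650 for MCM3, so the order depends on it. Undivided, mean MCM5 was above MCM2 and MCM6 in vehicle H1703 (1253 against 1171 and 917) and H441 (1526 against 1276 and 1454). It was below both in vehicle H460 (824.5 against 880.1 and 1631) and HCC827 (802.8 against 982.6 and 886.8). Exons of MCM7 share 8.94% of their length with AP4M1 on the opposite strand, and those of MCM2 share 22.7% with AC023593.1 on the opposite strand. The sources used here do not give whether counting used strand, so reads of such pairs cannot be told apart.

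MCM10, a fork protein outside the ring that helps the CMG helicase start, had the second most negative mean change of the 47 (-1.60 ± 0.05). H460 libraries had 1015 and 1041 normalised reads under vehicle and 177 and 184 under the combination of MCM10, and H1703 libraries had 1350 and 1443 against 208 and 186. With MCM10, HCC827 gave 305 and 317 against 201 and 168 and H441 gave 680.3 and 701 against 558 and 516 normalised reads. Treated and vehicle libraries did not overlap in any line. The fall in H1703, -2.81 ± 0.11 (7.01-fold lower, limma adjusted p = 1.81e-13), was the lowest value of any member in that line, and H460 had -2.49 ± 0.11, HCC827 -0.75 ± 0.11 and H441 -0.36 ± 0.11. MCM8, a helicase subunit of a separate complex used in recombination, fell past the threshold in the responsive lines. For MCM8, H460 gave 326 and 328 normalised reads under vehicle and 114 and 107 under the combination, and H1703 gave 291 and 315 against 86 and 99.3. Vehicle against treated MCM8 was 297 and 293 against 239 and 179 in HCC827 and 106 and 71.6 against 83.6 and 67.2 in H441. MCM8 changed by -1.54 ± 0.18 in H460 and -1.68 ± 0.18 in H1703, and the values in HCC827, -0.51 ± 0.18, and H441, -0.21 ± 0.18, did not pass.

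The kinase pair that triggers firing fell in H460, H1703 and HCC827. DBF4, the regulatory subunit, gave nearly equal values in the responsive lines. In H460, DBF4 had 857 and 901 normalised reads under vehicle and 334 and 464 under the combination, and in H1703 it had 478 and 512 against 225 and 203. For DBF4 the vehicle and treated libraries held 790.1 and 840.5 against 646 and 551 in HCC827 and 835 and 837 against 798 and 745 in H441. It changed by -1.15 ± 0.12 in H460, -1.20 ± 0.12 in H1703 and -0.45 ± 0.12 in HCC827. CDC7, the catalytic subunit, fell less in H1703 than in H460. CDC7 had 459 and 489 normalised reads under vehicle and 209 and 226 under the combination in H460, and 400.3 and 408 against 268 and 314 in H1703. CDC7 levels were 673 and 611 against 468 and 453 in HCC827 and 389.8 and 391 against 323 and 354 in H441, vehicle first. The treated libraries lay below vehicle in all lines. CDC7 changed by -1.11 ± 0.11 in H460, by -0.47 ± 0.11 in H1703 and by -0.47 ± 0.11 in HCC827, with the same rounded value in H1703 and HCC827. The HCC827 calls of both genes were lost without HCC827 vehicle 1 or combination 2, and that of DBF4 also without vehicle 2.

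CDC45 and the 4 GINS genes, whose products turn the ring into an active helicase, held several of the deepest falls. Each of the 5 fell in H460 and H1703 and 4 of 5 in HCC827, with medians of -2.28 in H460, -2.31 in H1703 and -0.52 in HCC827. GINS2 (ENSG00000131153.9, chr16:85676198-85690073, minus strand) had the most negative mean change of all 47 members (-1.71 ± 0.08). Libraries of H460 held 306 and 286 normalised reads under vehicle and 55.1 and 44.5 under the combination for GINS2, and those of H1703 held 280.5 and 269 against 45.7 and 35.5. The GINS2 pairs were 236 and 272 against 114 and 121 in HCC827 and 383 and 331 against 262 and 225 in H441. The treated libraries were the lower ones in each line. GINS2 changed by -2.52 ± 0.16 in H460 (5.72-fold lower), -2.69 ± 0.16 in H1703 (6.45-fold) and -1.09 ± 0.16 in HCC827. Its H441 value of -0.55 ± 0.16 was the lowest of any member there but did not pass (adjusted p = 0.0534 by limma). In H441, GINS2, MCM6, MCM10, PCNA and FEN1 were each called lower in at least 1 alternative setting.

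GINS1 had the most negative difference between the line classes, given below. The level of GINS1 was 1068 and 1081 normalised reads under vehicle and 204 and 214 under the combination in H460, and 536 and 598 against 71.9 and 101 in H1703. HCC827 had GINS1 at 739 and 713 against 572 and 444, and H441 at 1110 and 1032 against 1089 and 1065. The change was -2.35 ± 0.13 in H460 and -2.69 ± 0.13 in H1703, -0.52 ± 0.13 in HCC827, and 0.01 ± 0.13 in H441, where the libraries of the 2 treatments overlapped. GINS4 fell in H460, H1703 and HCC827. H460 libraries had 322 and 351 normalised reads under vehicle and 66.3 and 67.3 under the combination of GINS4, and H1703 libraries had 385 and 411 against 107 and 106. With GINS4, HCC827 gave 319 and 303 against 196 and 164 and H441 gave 383 and 369 against 369 and 365 normalised reads. Its values were -2.28 ± 0.12, -1.87 ± 0.12, -0.78 ± 0.12 and, in H441, -0.04 ± 0.12. GINS3 had the least negative mean change of the complex. For GINS3, H460 gave 294 and 252 normalised reads under vehicle and 105 and 68.4 under the combination, and H1703 gave 128 and 93.2 against 63.2 and 56.7. Vehicle against treated GINS3 was 286 and 335 against 288 and 203 in HCC827 and 163 and 159.5 against 162 and 127 in H441. It changed by -1.65 ± 0.21 in H460 and -0.84 ± 0.21 in H1703 (limma adjusted p = 0.00355), and the H1703 call was lost without vehicle library 1 (adjusted p = 0.0792). GINS4 exons share 21.2% of their length with AC009630.2 and GINS3 exons 10.9% with AC009118.2, both on the opposite strand. CDC45 had log2 changes of -1.88 ± 0.13, -2.31 ± 0.13 and -0.48 ± 0.13 in H460, H1703 and HCC827, all called, and of -0.20 ± 0.13 in H441.

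PCNA, the sliding clamp that holds the polymerases on DNA, fell in H460, H1703 and HCC827. In H460, PCNA had 2384 and 2242 normalised reads under vehicle and 512 and 504 under the combination, and in H1703 it had 1254 and 1254 against 198 and 181. For PCNA the vehicle and treated libraries held 1445 and 1213 against 833 and 655 in HCC827 and 575 and 591 against 487 and 458 in H441. Treated libraries were below vehicle libraries in all 4 lines. PCNA had log2 changes of -2.18 ± 0.11 in H460 (4.53-fold lower), -2.71 ± 0.11 in H1703 (6.54-fold, limma adjusted p = 3.58e-13), -0.84 ± 0.11 for HCC827 and -0.30 ± 0.11 for H441. The 5 RFC genes, subunits of the ATPase that opens the clamp, all fell in H460 and H1703, and none passed in HCC827 or H441. In HCC827 their unadjusted p was under 0.05 for 2 of 5, and their changes were -0.47 to 0.07.

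RFC3 had the most negative mean change of the RFC genes. RFC3 had 584 and 587 normalised reads under vehicle and 145 and 205 under the combination in H460, and 318 and 341 against 126 and 88.3 in H1703. RFC3 levels were 569.6 and 569 against 429 and 392 in HCC827 and 421 and 375 against 332 and 369.5 in H441, vehicle first. RFC3 changed by -1.75 ± 0.16 in H460 and -1.62 ± 0.16 in H1703. RFC1, the large subunit, had the least negative. Libraries of H460 held 948 and 1122 normalised reads under vehicle and 678 and 904 under the combination for RFC1, and those of H1703 held 1587 and 1427 against 819 and 760.5. The RFC1 pairs were 1331 and 1353 against 1235 and 1130 in HCC827 and 1390 and 1414 against 1423 and 1443 in H441. Its treated libraries were lower in H460, H1703 and HCC827 and in H441 they were the higher ones. The RFC1 change was -0.40 ± 0.11 in H460, a call lost without H460 vehicle library 2 (adjusted p = 0.16) or combination library 1 (0.225), and -0.93 ± 0.11 in H1703. RFC2, RFC4 and RFC5 were 3.61, 2 and 3.23-fold lower in H460 and changed by -1.41, -0.73 and -1.64 in H1703.

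The 3 RPA genes encode the complex that coats single-stranded DNA at the fork, and all fell in both responsive lines. RPA1, the large subunit, was the one called in HCC827. The level of RPA1 was 1315 and 1288 normalised reads under vehicle and 465 and 537 under the combination in H460, and 1867 and 1868 against 778 and 764 in H1703. HCC827 had RPA1 at 1578 and 1516 against 1242 and 1246, and H441 at 1038 and 943 against 942 and 972. RPA1 had log2 changes of -1.38 ± 0.08, -1.27 ± 0.08, -0.31 ± 0.08 and -0.05 ± 0.08 in H460, H1703, HCC827 and H441, and the HCC827 call was lost without any 1 of the 4 HCC827 libraries. RPA2 fell less in H1703 than in H460. H460 libraries had 472 and 457 normalised reads under vehicle and 165 and 152 under the combination of RPA2, and H1703 libraries had 371 and 387 against 256 and 207. With RPA2, HCC827 gave 384 and 354 against 378 and 316 and H441 gave 497 and 484 against 406 and 498 normalised reads. Its changes were -1.54 ± 0.13, -0.71 ± 0.13, -0.09 ± 0.13 and -0.12 ± 0.13. In HCC827 and H441 the RPA2 libraries of the 2 treatments overlapped. RPA3 changed by -1.35 in H460 and -0.95 in H1703.

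Polymerase alpha-primase lays the primers for both strands. Its 4 genes fell in H460 and H1703, and PRIM1, PRIM2 and POLA1 also in HCC827. POLA1, the catalytic subunit, had its highest level in vehicle HCC827. For POLA1, H460 gave 1460 and 1505 normalised reads under vehicle and 672 and 698 under the combination, and H1703 gave 1646 and 1586 against 497 and 486. Vehicle against treated POLA1 was 3814 and 3746 against 2482 and 2411 in HCC827 and 797 and 754 against 691 and 634 in H441. The treated libraries were lower in each line. POLA1 had log2 changes of -1.11 ± 0.08, -1.71 ± 0.08, -0.63 ± 0.08 and -0.23 ± 0.08 in H460, H1703, HCC827 and H441. POLA2, the regulatory subunit, had the fewest reads of the 47. In H460, POLA2 had 45 and 30.7 normalised reads under vehicle and 12.2 and 18.2 under the combination, and in H1703 it had 38 and 44.1 against 25.1 and 18.1. For POLA2 the vehicle and treated libraries held 44.8 and 55.7 against 36.5 and 41.5 in HCC827 and 117 and 117 against 136 and 102 in H441. It changed by -1.18 ± 0.27 in H460 and -0.86 ± 0.27 in H1703, where the call was lost without vehicle library 2 (adjusted p = 0.107) or combination library 2 (0.145). POLA2 shares 35.1% of its exon length with AP000944.2 on the same strand, so its counts are uncertain. The primase genes PRIM1 and PRIM2 changed by -1.53 and -1.25 in H460, -0.85 and -0.88 in H1703, and -0.55 and -0.39 in HCC827.

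Polymerase delta copies mainly the lagging strand and polymerase epsilon the leading strand. The 5 of their genes among the 47 fell in H460 and H1703, and of these POLE and POLE2 fell in HCC827. POLE2, a non-catalytic subunit of epsilon, had the most negative mean change of the 5. POLE2 had 403 and 381 normalised reads under vehicle and 104 and 85.5 under the combination in H460, and 214 and 195 against 65.3 and 98.5 in H1703. POLE2 levels were 319.9 and 292 against 234 and 144 in HCC827 and 266 and 286 against 276 and 257 in H441, vehicle first. POLE2 had log2 changes of -2.02 ± 0.20, -1.32 ± 0.20, -0.73 ± 0.20 and -0.05 ± 0.20 in H460, H1703, HCC827 and H441. POLD2, an accessory subunit of delta, had the least negative. Libraries of H460 held 1217 and 1080 normalised reads under vehicle and 709.7 and 652 under the combination for POLD2, and those of H1703 held 1285 and 1270 against 584 and 562. The POLD2 pairs were 837 and 776 against 775 and 849 in HCC827 and 512 and 478 against 474 and 511 in H441. The treated and vehicle libraries overlapped in HCC827 and H441. POLD2 had log2 changes of -0.75 ± 0.09 and -1.15 ± 0.09 in the responsive lines and of 0.01 ± 0.09 and -0.01 ± 0.09 in the others. POLD3, another accessory subunit of delta, had its highest level in H441. The level of POLD3 was 355 and 412 normalised reads under vehicle and 166 and 194 under the combination in H460, and 499.6 and 476 against 176 and 225 in H1703. HCC827 had POLD3 at 525 and 538 against 535 and 395, and H441 at 1484 and 1459 against 1424 and 1458. It changed by -1.08 ± 0.13 in H460 and -1.28 ± 0.13 in H1703. The catalytic genes POLD1 and POLE had log2 changes of -1.32 and -1.29 in H460, -1.43 and -1.44 in H1703, and -0.25 and -0.40 in HCC827.

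FEN1, the nuclease that trims Okazaki fragments, and LIG1, the ligase that seals them, both fell in the responsive lines. H460 libraries had 809 and 758 normalised reads under vehicle and 192 and 171 under the combination of FEN1, and H1703 libraries had 590.2 and 606 against 100.2 and 86.7. With FEN1, HCC827 gave 691 and 635 against 424 and 342 and H441 gave 727 and 666 against 562 and 533 normalised reads. FEN1 libraries did not overlap in any line, and the change was -2.10 ± 0.12 in H460 (4.28-fold lower), -2.65 ± 0.12 in H1703 (6.26-fold), -0.79 ± 0.12 for HCC827 and -0.34 ± 0.12 for H441. For LIG1, H460 gave 742 and 844 normalised reads under vehicle and 499.6 and 490.3 under the combination, and H1703 gave 823 and 787 against 374 and 322. Vehicle against treated LIG1 was 463 and 408 against 347 and 356 in HCC827 and 752 and 741 against 740.4 and 652 in H441. LIG1 changed by -0.67 ± 0.10 in H460 and -1.21 ± 0.10 in H1703, and its values of -0.30 ± 0.10 in HCC827 and -0.10 ± 0.10 in H441 did not pass.

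WDHD1, which tethers polymerase alpha to the helicase, fell in 3 lines. In H460, WDHD1 had 1055 and 1199 normalised reads under vehicle and 321 and 417 under the combination, and in H1703 it had 1084 and 1066 against 334 and 334. For WDHD1 the vehicle and treated libraries held 1434 and 1308 against 945 and 756 in HCC827 and 1525 and 1437 against 1359 and 1413 in H441. WDHD1 had log2 changes of -1.61 ± 0.12, -1.68 ± 0.12, -0.69 ± 0.12 and -0.10 ± 0.12 in H460, H1703, HCC827 and H441. TIMELESS and TIPIN form the fork protection complex. TIMELESS had 1870 and 2101 normalised reads under vehicle and 723 and 818 under the combination in H460, and 1585 and 1385 against 884 and 887 in H1703. TIMELESS levels were 1396 and 1365 against 1281 and 1155 in HCC827 and 1120 and 1131 against 1153 and 1162 in H441, vehicle first. TIMELESS changed by -1.36 ± 0.09 in H460 and -0.74 ± 0.09 in H1703, and in H441 the treated libraries were slightly the higher ones (0.04 ± 0.09, not called). TIPIN changed by -1.15 ± 0.23 in H460 and -0.60 ± 0.23 in H1703 (limma adjusted p = 0.0491). The H1703 call of TIPIN was lost in 14 of 25 alternatives (adjusted p up to 0.29), among them the fits without any H1703 or H441 library or either H460 vehicle library.

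The responsive and non-responsive lines were compared directly, as the mean change of H460 and H1703 minus that of HCC827 and H441. This difference was negative and past the threshold for 43 of 47 members and positive for none, where 12.1% of all genes passed as lower and 11.2% as higher (limma, adjusted p under 0.05). At an unadjusted p under 0.05, 1 member was positive, and limma voom called none higher. The median difference of the members was -1.10, and that of all genes 0.07. With each library centred on its median, the members' median was -1.31, and the share of all called genes that were higher went from 48 to 23.9%. GINS1 differed the most, by -2.26 ± 0.13 (adjusted p = 3.77e-10), followed by MCM10 with -2.09 ± 0.11 and ORC1 with -1.89 ± 0.17. By role, the median difference was -1.75 for CDC45 and the GINS genes, -1.44 for the ring, -1.36 for RFC, -1.02 for RPA and -0.20 for ORC.

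TIPIN, ORC3, ORC4 and ORC5 did not pass in the class comparison. Their values were -0.45 ± 0.23, -0.16 ± 0.09, 0.34 ± 0.13 and 0.11 ± 0.13. ORC2 passed with -0.24 ± 0.08 (adjusted p = 0.0364 by limma), the smallest of the 43 differences, and this call was lost in 15 of 24 alternatives, 13 of them fits without 1 library, any but H460 vehicle 1, H460 combination 2 and H1703 combination 1 (adjusted p up to 0.104). Without H441 combination 1, ORC4 passed as higher (0.46, adjusted p = 0.00792). POLA2 was lost without any 1 of H460 vehicle 1, H460 combination 1, H1703 vehicle 2, H1703 combination 2, HCC827 vehicle 1, HCC827 combination 2 and H441 combination 1 (adjusted p up to 0.0709). The other 41 differences passed in each fit that left out 1 library.

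**Figure D5:**
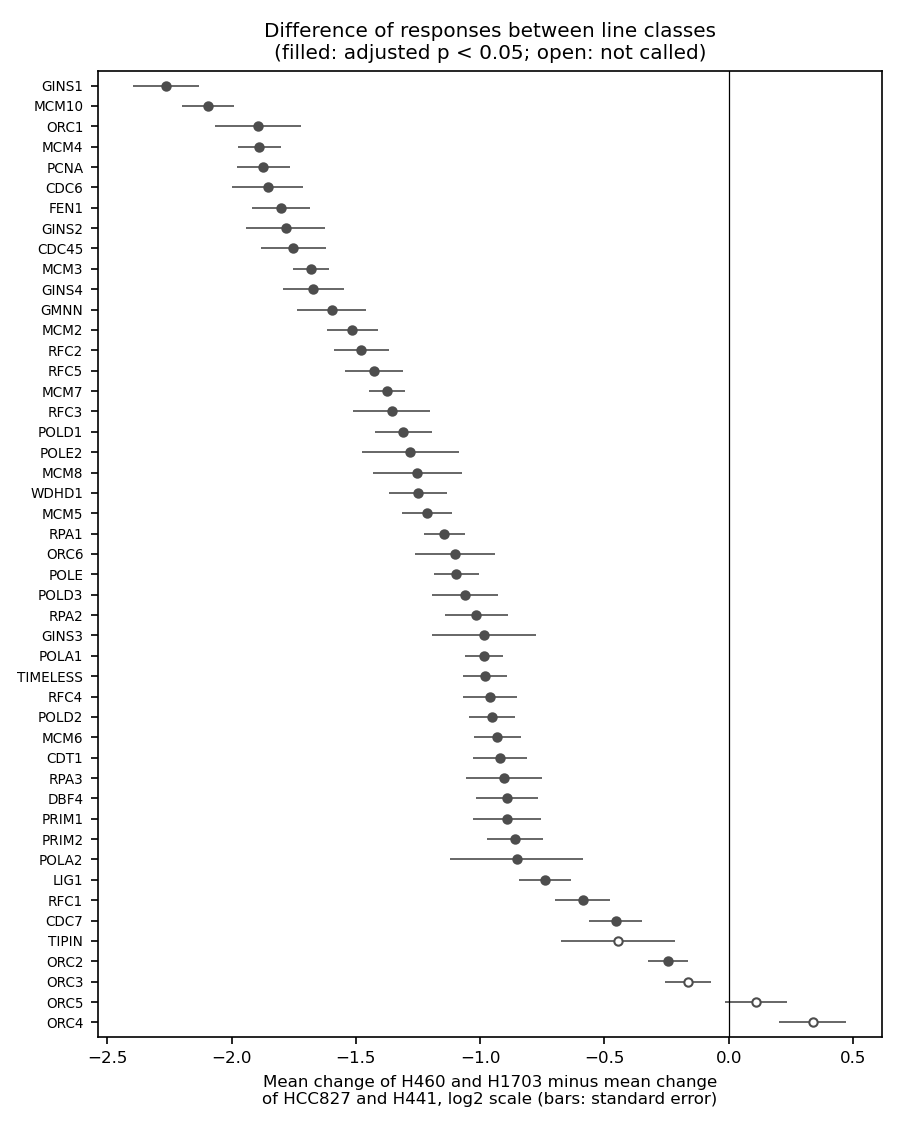
Mean log2 change of H460 and H1703 minus that of HCC827 and H441 (x axis) for each of the 47 genes, ordered by value (y axis), with bars for the standard error of the fit. Filled points are the 43 genes that passed an adjusted p of 0.05, from GINS1 at -2.26 to ORC2 at -0.24, and open points are TIPIN, ORC3, ORC5 and ORC4.

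The plot of differences between line classes shows nearly all members to the left of 0, with the ORC core genes and TIPIN at the right end. The line classes kept a common order in most members. Both responsive lines had a lower change than both non-responsive lines in 44 of 47 members. HCC827 lay below H441 in 41 of 47, and H460 lay below H1703 in 28. How many of all genes tested keep these orders was not counted, so the counts describe the members only. As a description across the 47 genes, which share libraries and are not replicates, changes in H460 and H1703 correlated at 0.805, H460 and HCC827 at 0.805, H1703 and HCC827 at 0.706, HCC827 and H441 at 0.473, H460 and H441 at 0.316 and H1703 and H441 at 0.295.

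The 2 responsive lines differed from each other in 17 of 47 members. The 10 that fell further in H460 were 21.3% of the members, where 7.8% of all genes passed as lower in this contrast. The 7 that fell further in H1703 were close to the share of all genes that passed as higher (11.3%). Fallen further in H460 were CDT1 (-1.01 ± 0.15), RPA2 (-0.83 ± 0.18), MCM7, MCM6, PRIM1, CDC7, TIMELESS, MCM5, MCM2 and RFC2, the others between -0.79 and -0.45. Fallen further in H1703 were POLA1 (0.60 ± 0.11), FEN1 (0.55 ± 0.16), LIG1, RFC1, PCNA, MCM3 and POLD2, the others between 0.40 and 0.53. The ring itself divided, with MCM2, MCM5, MCM6 and MCM7 lower in H460, MCM3 lower in H1703 and MCM4 not called. In every fit that left out 1 library, 8 of the 17 differences passed (CDT1, MCM3, MCM6, MCM7, CDC7, RPA2, POLA1 and TIMELESS). Of the other 9, RFC2 was lost in 12 such fits, FEN1 in 5 (H460 vehicle 2, H460 combination 1, H1703 vehicle 1, H1703 vehicle 2 and H1703 combination 2), and all 9 without H1703 vehicle 1. The 7 that fell further in H1703 became 4 without H460 vehicle 2, 2 without H1703 vehicle 1, 4 without H1703 vehicle 2 and 3 without H1703 combination 2.

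Between the non-responsive lines, 3 members fell further in HCC827 than in H441 and none less, where 1.31% of all genes passed as lower and 0.697% as higher (limma, adjusted p under 0.05). They were MCM5 (-0.75 ± 0.14, adjusted p = 0.00736), GINS4 (-0.75 ± 0.17, 0.0246) and MCM7 (-0.53 ± 0.10, 0.00776). At an unadjusted p under 0.05, 18 members were lower and 1 higher, with no share of all genes counted at that threshold. Limma voom called 7 lower and none higher. Of all genes called, 34.7% were higher, and 48.5% after quantile normalisation. Leaving out 1 library gave 1 call without HCC827 vehicle 1, HCC827 combination 2, H441 vehicle 2 or H441 combination 2, 5 without H460 combination 1 or combination 2, and 6 without HCC827 combination 1. None of the 3 calls held in every such fit, and without H441 combination 1 ORC4 passed as higher (0.73, adjusted p = 0.0479).

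Under vehicle, the replication genes as a group did not stand apart between the classes: 10 members were lower and 16 higher in H460 and H1703 (27.6 and 28.8% of all genes), with a median difference of 0.02 against 0.01 for all genes. MCM10 was higher in the responsive lines by 1.36 ± 0.07 and MCM8 by 0.96 ± 0.13. The vehicle MCM10 libraries had 1015 and 1041 normalised reads in H460 and 1350 and 1443 in H1703, all above the 305 and 317 of HCC827 and the 680.3 and 701 of H441. For MCM8 the contrast came from H441, which had 106 and 71.6, while HCC827 with 297 and 293 was near H460 and H1703. H441 also stood apart for the next pair, whose vehicle levels were 1484 and 1459 for POLD3 and 117 and 117 for POLA2, against 525 and 538 and 44.8 and 55.7 in HCC827. POLD3 was lower in the responsive lines by 1.03 ± 0.10 and POLA2 by 0.93 ± 0.19. POLD2 (0.93) and RFC2 (0.65) were also higher, with each vehicle library of H460 and H1703 above each of HCC827 and H441. PCNA (0.95) and TIPIN (0.65) passed too, but their H1703 libraries did not stand above the non-responsive lines. PCNA had 1254 and 1254 in H1703 against 1445 and 1213 in HCC827, and TIPIN had 165 and 133 in H1703 against 144 and 152 in H441. Without H441 vehicle 1, the 10 lower members became 6, and median centring or leaving out the trend and robust settings of limma also gave 6.

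Further replication genes outside the 47 mostly fell in H460 and H1703, and most did not pass in HCC827 or H441. Of 32 such genes listed for their roles, also with earlier results of these data known, 31 were tested. In H460, 23 fell and 3 rose (12.6 and 14.1% of all genes did so), and in H1703 23 fell and 4 rose (17.6 and 17.9%). HCC827 had 10 that fell and 1 that rose (5.5 and 4.42%), and H441 had 3 and none (1.86 and 2.77%). Their median change over the 4 lines was -0.66, against -0.88 for the 47 members and 0.05 for all genes. PCLAF, a PCNA-binding factor, changed by -1.77 over the 4 lines, the histone chaperone ASF1B by -1.47, the checkpoint adaptor CLSPN by -1.29 and FBXO5, an inhibitor of the anaphase-promoting complex, by -1.11. PCLAF, CLSPN and FBXO5 were the 3 that fell in H441 as well (-0.98 for PCLAF, -0.49 for CLSPN, -0.45 for FBXO5). Opposite to these, the small delta subunit gene POLD4 rose by 0.70 over the 4 lines and the telomere replication gene STN1 by 0.58.

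Of 32 E2F and G1/S regulators, 19 fell and 4 rose in H460, 20 fell and 2 rose in H1703, 10 fell and 1 rose in HCC827, and 5 fell and 1 rose in H441, beside the shares of all genes just given. The list's median change over the 4 lines was -0.42, and the genes named next had its largest changes. The activator E2F2 changed by -1.79 over the 4 lines, MYBL2 by -1.62, the repressor E2F8 by -1.50 and FOXM1 by -1.39. CDKN1A, which encodes the CDK inhibitor p21, rose by 2.47 ± 0.20 in H460 and 1.71 ± 0.20 in HCC827 and had 0.50 ± 0.20 in H1703 and 0.39 ± 0.20 in H441. Its mean change was 1.27, and that of the cyclin gene CCND1 was 0.41. The CDKN1A difference between the classes, 0.43 ± 0.20, did not pass (limma adjusted p = 0.138). MYC, whose protein MYCi975 is designed to inhibit, had -0.06 ± 0.11 in H460 (not called), 1.34 ± 0.11 in H1703, 0.60 ± 0.11 for HCC827 and 0.26 ± 0.11 for H441 (not called), so its RNA did not follow the order of the replication genes over the lines.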

How the data were processed

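The submitters' processing notes name Trimmomatic, STAR and featureCounts, without versions or roles, and the build hg38 (GRCh38). Annotation release and strand setting are not given in the sources used here. Libraries came from a stranded total RNA kit, per the labels' protocols. The authors deposited variance-stabilised counts on a log2 scale for 28951 genes. Once the transformation was inverted, 100% of values were whole reads (within 0.02), with depths of 8493271 to 13604150 reads. These reads gave the levels, and the deposited log2 values gave the tests.

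With limma (3.58.1, R 4.3.3, trend and robust settings), the means of the 8 groups were fitted for 23968 genes. Left out were 4983 genes whose mean was less than 1 above the table's lowest value of 0.480538. P-values were adjusted by Benjamini and Hochberg over all of them, called at 0.05 without a minimum change. Alternatives were another scaling, other filters, plain empirical Bayes, replicate blocks, limma voom on recovered reads, fits of the lines compared alone, and each library left out.

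GENCODE 29, with 28846 of the IDs, gave symbols and exons, and RefSeq gave promoters. Python 3.11.15 was used, with matplotlib 3.10.9, pandas 2.3.3 and numpy 2.4.6. The members, lists and rules were chosen with earlier results of these data known. Levels per library are given for the members with the most and the least negative mean change of each role, those with the largest differences between lines or classes, and those called in no line. Of the other lists, up to 4 genes with the largest mean change and up to 2 of opposite sign are named. No protein sequence was used here.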

Additional observations from a re-analysis of the deposited data

Results flagged for a closer look

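The change under the combination differed between the line classes for 43 members, all further down in H460 and H1703, by the direct test of the difference in limma (12.1% of all genes passed as lower). The largest differences were GINS1 (-2.26), MCM10 (-2.09) and ORC1 (-1.89). Between the responsive lines, 10 members were lower in H460 (21.3% of members, 7.8% of all genes), led by CDT1 (-1.01) and RPA2 (-0.83). Another 7 of 47 were lower in H1703, close to the share of all genes (11.3%), led by POLA1 (0.60) and FEN1 (0.55). The 7 became 2 without H1703 vehicle 1, and FEN1 was lost in 5 fits that left out 1 library. Between the non-responsive lines, 3 members were lower in HCC827, among them MCM5 (-0.75) and GINS4 (-0.75), where 1.31% of all genes passed. None of these 3 calls held in every fit that left out 1 library, and the count ran from 0 to 7 over the alternatives. All of these are differences of log2 changes that passed the limma test of the difference (adjusted p under 0.05). What sets the lines apart was not tested.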

How the results depend on the processing

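With each of the 16 libraries left out in turn, the members called lower numbered 42 to 44 in H460 (44 with all libraries), 41 to 43 in H1703 (43), 14 to 28 in HCC827 (26), 0 to 5 in H441 (2), 44 for the mean of the lines and 41 to 43 for the class difference (43). Members called higher stayed at 0 in each line, and reached 0 to 1 for the class difference. For H460 minus H1703 the same fits gave 7 to 12 lower (10) and 2 to 7 higher (7), for HCC827 minus H441 1 to 6 lower (3) and 0 to 1 higher (0), and for the vehicle class difference 6 to 10 lower (10) and 14 to 16 higher (16). Without the trend and robust settings, the lower counts were 14 in HCC827, 0 in H441, 6 for H460 minus H1703 (2 higher), 0 for HCC827 minus H441 and 6 for vehicle. With the libraries of a line alone they were 16 in HCC827 and 0 in H441. Median centring gave 1 in H441 and 6 for vehicle, no filter gave 1 in H441, and the stricter filter gave 4 in H441 and 5 for HCC827 minus H441. Limma voom gave 6 in H441 and 7 for HCC827 minus H441. A replicate block within each line gave 4 in H441 and 6 for HCC827 minus H441 and changed no other count by over 1.5 times. Same-numbered libraries of a line deviated together only slightly (correlations of 0.0136 to 0.0319), so the numbers were not taken as pairs. Between groups of different lines these correlations were -0.0218 to 0.0204, below the values of H460 (0.0319) and HCC827 (0.0267). Over single members, 10079 comparisons with an alternative kept their side of the threshold, 268 lost the call and 87 gained it. The sign differed in 104 of the 10079, 17 of them with median centring, and none of these was called in either fit. The counts in H460, H1703 and the class difference moved little under these settings, and those of HCC827 and H441 moved more. The cause was not tested. Genes of few reads, POLA2 above all, carry wide errors, and intervals cover these libraries only.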
